A study of Mus musculus with 20 samples.

Results

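In unstimulated bone marrow-derived mouse macrophages, 188 of 24342 gene symbols were near silence without an inhibitor of the histone methyltransferase DOT1L. In every unstimulated culture grown with the inhibitor they were higher than in any without it. These 188 genes are described here. They were chosen from the unstimulated libraries by 4 conditions: a mean under 2 CPM (CPM scales the counts of a library by its total and its TMM factor) in 4 DMSO libraries, a mean of 0.5 CPM or more in 4 SGC0946 libraries, a ratio of the means of at least 2, and every SGC0946 library above every DMSO library. Of 13838 symbols under 2 CPM in DMSO, 1495 reached 0.5 CPM with SGC0946, 286 of those reached the ratio of 2, and 188 also had no overlap between the arms. Among the 6988 symbols under 2 CPM in DMSO with a count in any library, the 188 genes made up 2.69%. The same conditions turned round, for genes under 2 CPM with SGC0946 and higher in DMSO, held for 14 genes, among them the neutrophil genes Ltf, Ngp, Lcn2, S100a8 and S100a9.

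Bone marrow of C57BL/6 mice was cultured for 7 to 8 days with 15% L929-conditioned medium, the source of the macrophage growth factor M-CSF, with 1 µM SGC0946 or its solvent DMSO present throughout. SGC0946 is a small-molecule inhibitor of DOT1L. The resulting macrophages were left unstimulated (4 DMSO and 4 SGC0946 libraries), given 10 ng/mL of the bacterial product LPS for 3 h (3 and 3) or given 2 µM of GW3965, an agonist of the sterol-sensing nuclear receptor LXR, for 17 h (3 and 3). The deposited sample sheet assigns the 20 libraries to 4 mice, so that all 6 groups draw on the same animals, and the mice of the LPS and GW3965 libraries are mice 1 to 3. The titles of the DMSO libraries of mice 1 to 3, unstimulated and with GW3965, carry the word "reanalyzed". With GW3965 this cannot be told apart from the inhibitor, and in unstimulated cells only in part, while no LPS library carries it.

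DOT1L is the enzyme that methylates lysine 79 of histone H3. This mark lies over the bodies of transcribed genes, and DOT1L is recruited there with elongation factors. It has also been described at the boundaries of silent chromatin in yeast, where the orthologous enzyme was found as a disruptor of telomeric silencing. Macrophages keep many genes of other lineages silent through Polycomb, H3K9 methylation, DNA methylation and corepressor complexes.

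Dot1l itself was detected at 44.2 to 64.8 CPM in unstimulated SGC0946 libraries and 56.4 to 64.6 CPM in DMSO libraries, which says nothing of its activity. All 15 macrophage markers examined were detected, with a summed level of at least 17143 CPM in every library. Depth was 8174951 to 13331945 counts per library (median 10399198), at which a member had a median of 6 counts per DMSO library and 16 per SGC0946 library in unstimulated cells.

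Promoter sequences are shown for the first 4 members in order of CPM in unstimulated SGC0946 cells that have an entry, since they include windows rich and poor in CG, together with that of Arhgef5, which had the highest ratio between the arms and was added after its values were seen. Each runs from 250 bases before to 50 bases after the annotated start, 5′ to 3′ in the direction of the gene (RefSeq, GRCm38.p6), and capitals mark CG dinucleotides. Tspan7 lies at chrX:10484866-10485165 (plus strand), Bicd1 at chr6:149408734-149409033 (plus), Fstl1 at chr16:37776805-37777104 (plus), Satb1 at chr17:51833241-51833540 (minus, the first of 5 entries) and Arhgef5 at chr6:43265394-43265693 (plus).
Tspan7: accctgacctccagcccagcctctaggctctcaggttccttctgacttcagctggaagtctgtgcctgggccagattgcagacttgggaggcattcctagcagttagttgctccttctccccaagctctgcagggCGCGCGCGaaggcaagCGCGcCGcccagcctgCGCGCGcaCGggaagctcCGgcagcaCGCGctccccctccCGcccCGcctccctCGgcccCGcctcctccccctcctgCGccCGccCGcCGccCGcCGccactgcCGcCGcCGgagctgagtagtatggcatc
Bicd1: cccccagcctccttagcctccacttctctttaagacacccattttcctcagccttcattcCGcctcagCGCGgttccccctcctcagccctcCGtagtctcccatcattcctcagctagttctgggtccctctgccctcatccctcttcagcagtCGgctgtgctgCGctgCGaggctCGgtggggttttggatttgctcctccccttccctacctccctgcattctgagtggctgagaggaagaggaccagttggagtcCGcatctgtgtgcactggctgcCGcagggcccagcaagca
Fstl1: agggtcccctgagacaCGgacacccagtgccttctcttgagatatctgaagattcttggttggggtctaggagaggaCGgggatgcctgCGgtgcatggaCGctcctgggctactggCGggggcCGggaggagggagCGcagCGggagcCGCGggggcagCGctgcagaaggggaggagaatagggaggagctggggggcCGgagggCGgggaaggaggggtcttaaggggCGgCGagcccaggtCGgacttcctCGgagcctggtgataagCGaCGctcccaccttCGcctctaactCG
Satb1: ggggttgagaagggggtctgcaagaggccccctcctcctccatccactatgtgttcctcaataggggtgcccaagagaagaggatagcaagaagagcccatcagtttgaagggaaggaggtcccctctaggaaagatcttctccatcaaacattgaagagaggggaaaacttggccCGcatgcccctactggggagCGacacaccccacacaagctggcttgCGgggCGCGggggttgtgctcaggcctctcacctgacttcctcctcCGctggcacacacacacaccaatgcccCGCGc
Arhgef5: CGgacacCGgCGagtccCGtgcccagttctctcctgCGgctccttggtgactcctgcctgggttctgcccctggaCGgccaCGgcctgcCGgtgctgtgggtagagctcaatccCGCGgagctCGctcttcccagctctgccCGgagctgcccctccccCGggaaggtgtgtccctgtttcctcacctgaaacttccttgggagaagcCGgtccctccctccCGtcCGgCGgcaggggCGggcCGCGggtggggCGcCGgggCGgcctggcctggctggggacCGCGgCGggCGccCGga
The Arhgef5, Tspan7 and Fstl1 windows held 28, 27 and 21 CG dinucleotides, the Bicd1 and Satb1 windows 10 and 8. Of the 188 members, 141 had a promoter entry. A CpG-rich window (GC content of 50% or more and an observed to expected CG ratio of 0.6 or more) was found for 74 of these, or 52.5%, against 42.8% of 2446 tested genes that were also under 2 CPM in DMSO cells and 65.7% of 10959 tested genes. The GGGCGG box bound by Sp1 (both strands) stood in 61.0% of member windows, 62.4% of those of tested genes, 49.96% of those of the low tested genes and 35.7% of 32851 promoters in the table. In the same order TATAAA stood in 9.22%, 7.52%, 11.3% and 13.6%, and the AP-1 motif TGANTCA in 3.55%, 5.39%, 7.65% and 7.81%. These shares are descriptions of the windows only.

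The members were mostly protein-coding genes (177), with 10 long non-coding RNAs and 1 transcribed pseudogene, and lay on 20 chromosomes. Chromosome 7 held 18 of them. Chromosome X held 12, or 6.38%, against 3.22% of tested genes. Member genes were longer than tested genes, with a median span of 37.1 kb against 21.4 kb, and against 15.3 kb for the 3397 tested genes under 2 CPM in DMSO. A span over 100 kb was found for 24.5% of members, 11.6% of tested genes and 11.7% of the low genes.

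In unstimulated cells the members' mean levels had a median of 0.42 CPM in the DMSO arm and of 1.32 CPM in the SGC0946 arm. These are the values that chose the members, so they are given without a test, and the separation of the arms in all 188, against 7.18% of 13901 tested genes, follows from the choice. The ratio of the means ran from 2.01 to 46.7 with a median of 3.02. It was 4 or more in 42 genes and 10 or more in 9. No member reached 10 CPM with the inhibitor, and 56 reached 2 CPM. All 188 members had a count in each of the 4 SGC0946 libraries, and 178 to 181 of them in each DMSO library. The shift differed somewhat between animals: the median log2 ratio to the DMSO mean (pseudocount 0.25 CPM) was 0.95 in the SGC0946 library of mouse 1, and 1.15, 1.15 and 1.19 in those of mice 2, 3 and 4. Per kilobase of transcript, the highest member in SGC0946 cells was Fxyd2, a regulator of the sodium pump, at 7.44 RPKM (the authors' reads per kilobase, scaled for depth), followed by Tspan7 at 4.17 and Mill2, an MHC class I-like gene, at 2.85.

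**Figure D1:**
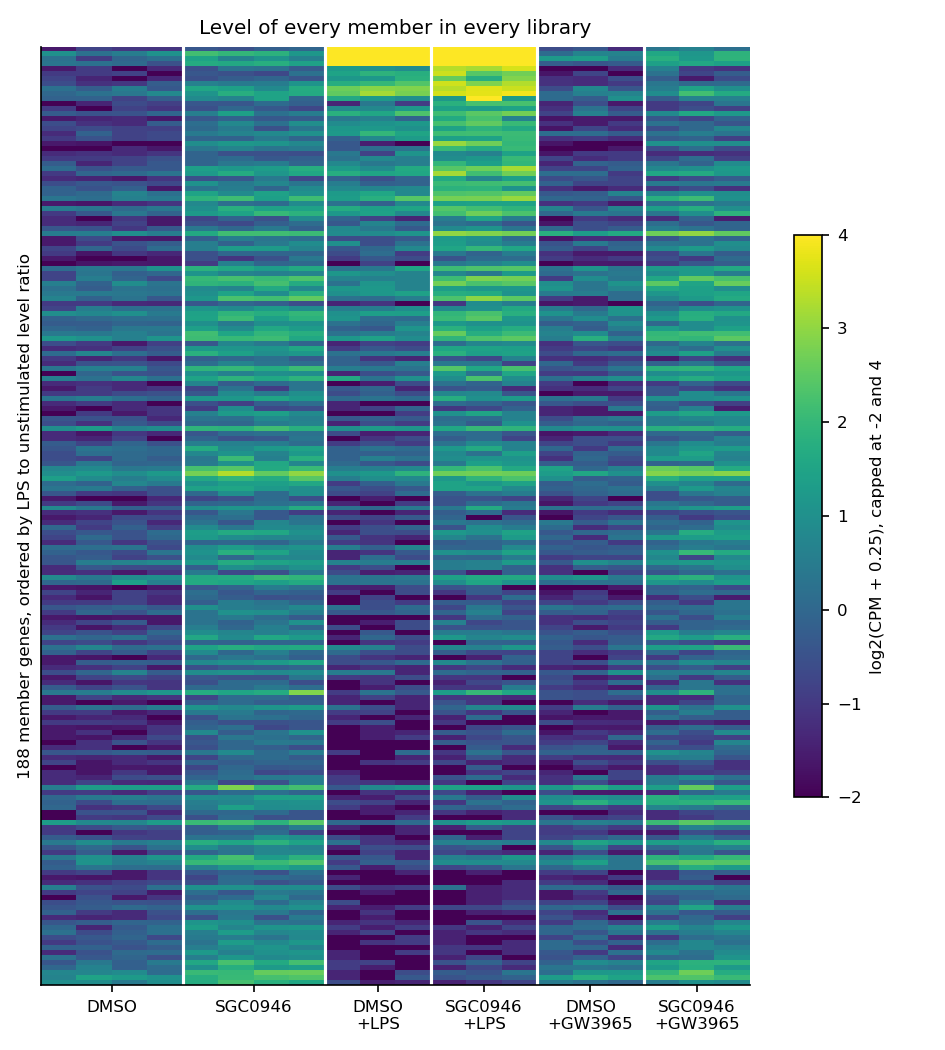
Level of each of the 188 genes (rows) in each of the 20 libraries (columns) as log2(CPM + 0.25), in 6 groups of 3 or 4 libraries, with rows ordered by the ratio of LPS to unstimulated levels. The SGC0946 columns are brighter than the neighbouring DMSO columns in each condition, which in unstimulated cells follows from the choice of the members. The rows at one end, with the highest ratio, are bright in both arms after LPS.

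Near the limits of the rule, members and non-members had like values. Just under 2 CPM in DMSO were Abca6 at 1.99, Fam13a at 1.97 and Tspan7 at 1.89 CPM, and just above it Armcx2 at 2.13, Rab15 at 2.15 and Cald1 at 2.27 CPM. At the limit of 0.5 CPM with SGC0946, Mdrl (0.503), Mcc (0.507) and Tspan9 (0.510) were inside and Hoxb7 (0.494), Mmp10 (0.486) and Atp2b3 (0.485) outside. At the ratio of 2, Lrfn1 (2.01), Nudt12 (2.02) and Lgr4 (2.02) were inside and Eps8l3 (1.99), Tgfbr3l (1.98) and Aplp1 (1.97) outside. Sugct passed the condition on overlap by a gap of 0.0033 CPM.

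The members lowest in DMSO had almost no counts there. In 8 genes (Arhgef5, Peg10, Enpp5, Lrrc3, Tcf24, Zfp521, Cplx2 and Tspan9), all 4 DMSO libraries together held 2 or 3 counts. Arhgef5, a guanine nucleotide exchange factor, had 2 counts in DMSO and 88 in SGC0946, a ratio of 46.2 with a 95% interval of 12.4 to 388 that covers counting error only. Peg10, a gene derived from a retrotransposon and expressed from the paternal allele, had 3 and 57 counts, a ratio of 20.0 (6.50 to 99.7). Both ratios come from the libraries that chose the members, so they and their intervals are descriptions and no test. Arhgef5 had the highest ratio of the members, so its size may be overstated. None of the 188 was without any count in DMSO.

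The LPS and GW3965 libraries took no part in choosing the genes, although they come from the same mice, and were used to test them. The spread of each gene was estimated from all 20 libraries, so the unstimulated libraries that chose the members also enter these p-values. The rule asked for separate arms there, which can favour genes of small spread. How much this adds to the calls was not tested. After LPS, 64 of the 188 members (34.0%) were higher with SGC0946 than with DMSO at a Benjamini-Hochberg adjusted p under 0.05 by edgeR's quasi-likelihood test, against 3.01% of the 13901 genes tested and 3.65% of the 3209 low genes that were not members. By that test no member was lower, against 3.33% of all genes, and no member was lower at an unadjusted p under 0.05. The fitted change was above 0 in 171 members (91.0%), against 47.3% of all genes and 65.3% of low non-members. Every SGC0946 library lay above every DMSO library in 98 members (52.1%), against 10.4% of all genes, and 107 were 2-fold or more higher on the fitted value, against 6.80%. The median log2 fold change was 1.23, or 1.20 with 5 of the 9 genes at 0 in a group set to their bound and 4 at or under the floor left out, beside -0.01 over all genes. Fewer members passed without the DMSO+LPS library of mouse 1 (38) or of mouse 2 (37), or without mouse 2 in all groups (32), and 22 of the 64 kept the call in every alternative that tested them.

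With GW3965, 64 members (34.0%) were again higher with SGC0946 by edgeR's test, against 1.90% of all genes tested and 1.12% of low non-members. None was lower by that test, against 1.34% of all genes, and none at an unadjusted p under 0.05. The fitted change was above 0 in 180 members (95.7%), against 49.4% of all genes and 61.3% of low non-members. In 119 members (63.3%) the arms did not overlap, against 9.15% of all genes, and 121 were 2-fold or more higher, against 5.90%. The median log2 fold change was 1.22, beside 0.00 over all genes. The count was 28, 40 and 40 without the DMSO+GW3965 library of mouse 1, 2 and 3, 35 without the SGC0946+GW3965 library of mouse 2 and 25 without mouse 2 in all groups. It was 22 when the 6 GW3965 libraries were fitted alone, and 17 of the 64 kept the call in every alternative. The word in the titles of the DMSO+GW3965 libraries cannot be told apart from the inhibitor here.

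In both conditions 40 members passed (21.3%, against 0.971% of all genes), 24 passed after LPS alone, 24 with GW3965 alone and 100 in neither. The arms were separate in both conditions in 79 members, against 3.08% of all genes. For 166 members the fitted change was above 0 in both and for 3 it was below 0 in both. The difference between the inhibitor's effects after LPS and with GW3965 passed the test in 0 members by edgeR, by DESeq2 and by limma-voom. In edgeR 19 members had an unadjusted p under 0.05 for that difference, 10 with the larger effect after LPS and 9 with GW3965, against 7.77% of all genes. The smallest adjusted p was 0.214 by edgeR, for Htra1. Members called in 1 condition alone are therefore not shown to respond differently in the other.

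**Figure D2:**
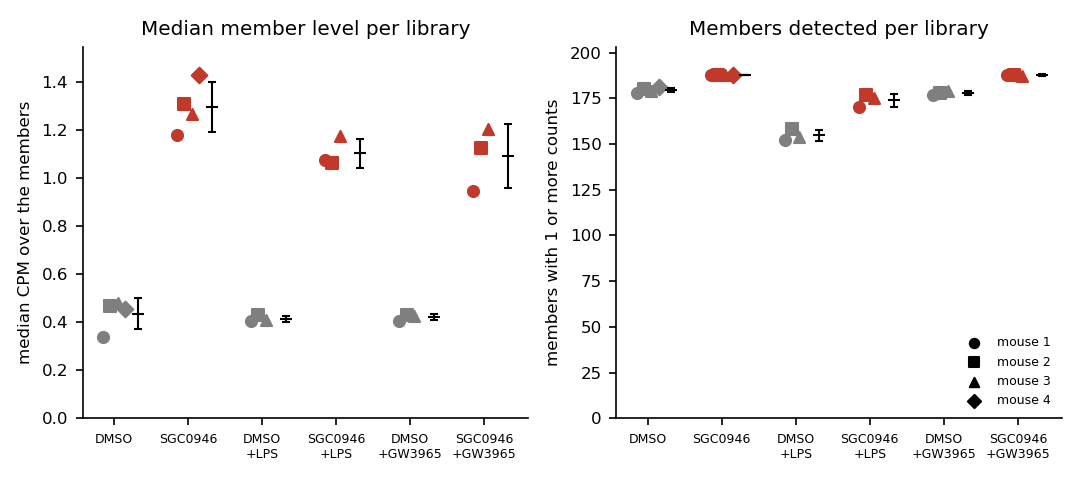
Median CPM over the 188 members (left) and number of members with at least 1 count (right) in each library, by group. Grey points are DMSO and red points SGC0946 libraries, symbols give the mouse, and black marks give mean ± SD. The SGC0946 libraries had medians of 0.945 to 1.43 CPM and the DMSO libraries 0.338 to 0.480 CPM, and detection was lowest after LPS in DMSO, at 152 to 158 members. The LPS libraries had lower TMM factors, so that at equal totals 1 CPM stands there for fewer counts. The unstimulated values chose the members.

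Calls followed the level. Of the 94 members above the median level of 0.889 CPM over all libraries, 51 passed after LPS and 48 with GW3965. Of the 94 below it, 13 and 16 passed, although the fitted change was above 0 in 80 and 86 of them. Among the 41 members with a mean under 0.25 CPM over the LPS libraries none passed after LPS by edgeR's test. The 124 members that did not pass after LPS include 107 with a fitted change above 0, and no statement on the absence of a change can be made for them.

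Members were next grouped by role, after their values were seen. The counts of this and the following groups stand beside 34.0% of all members called higher in each condition. Over all genes tested the shares were 3.01% after LPS and 1.90% with GW3965. No group was tested against the other members. Regulators of the actin skeleton formed a group of 16 members, of which 8 rose after LPS, 9 with GW3965 and 7 in both. Arhgef5 was the member with the largest change with GW3965. After LPS it was at 0.539, 0.107 and 0 CPM in DMSO and at 8.12, 6.14 and 3.69 CPM in SGC0946 in mice 1, 2 and 3. With GW3965 the DMSO libraries had 0.0677, 0 and 0 CPM, which is 1 count, and the SGC0946 libraries 1.80, 1.73 and 1.71 CPM. The arms were far apart in both conditions. Its log2 fold change after LPS was 4.80 ± 0.48 (SE, edgeR adjusted p = 4.2e-06), and with GW3965 the ratio was 66.8, with a counting interval of 11.5 to 2682 (edgeR adjusted p = 7.9e-05).

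Epb41l3 encodes a protein of the 4.1 family, which ties membrane proteins to the spectrin and actin skeleton. It was at 1.62, 1.61 and 1.92 CPM in DMSO+LPS and at 7.77, 7.08 and 6.37 CPM in SGC0946+LPS. With GW3965 the values were 3.18, 2.23 and 2.88 CPM in DMSO and 6.10, 7.77 and 5.52 CPM in SGC0946. No library of the DMSO arm reached any of the SGC0946 arm in either condition. On the log2 scale the inhibitor effect was 2.05 ± 0.22 after LPS (edgeR adjusted p = 9.2e-06) and 1.21 ± 0.18 with GW3965 (edgeR adjusted p = 0.00035).

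Cnn3 encodes calponin 3, an actin-binding protein. It was near silence in unstimulated cells, at 0.0845 to 0.335 CPM in DMSO and 0.449 to 0.715 CPM in SGC0946, and was high after LPS in both arms. The DMSO+LPS libraries had 43.2, 43.5 and 47.8 CPM and the SGC0946+LPS libraries 86.6, 80.4 and 83.3 CPM, again with no overlap. This gave a log2 fold change of 0.90 ± 0.10 after LPS (edgeR adjusted p = 1.2e-05). With GW3965 it was 1.54 ± 0.32 (edgeR adjusted p = 0.0169), a call that was lost in the fit of the GW3965 libraries alone (0.142 by edgeR) and without mouse 1 or 3 of DMSO+GW3965 (0.0522 and 0.137) or mouse 2 of SGC0946+GW3965 (0.122). This call was also lost without mouse 2 in all groups (0.111 by edgeR). In this gene 17.7% of exon bases overlap another annotated gene, so its counts are uncertain.

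Among 9 growth factor receptors and their adaptors, Flt1 and Vash1 rose in both conditions and Grb10 with GW3965. Flt1, receptor 1 for the endothelial growth factor VEGF, was named after its values were seen. It was at 3.10, 3.75 and 4.93 CPM in DMSO+LPS and at 11.6, 6.96 and 9.72 CPM in SGC0946+LPS, where the lowest SGC0946 library was above the highest DMSO library. Its log2 fold change was 1.26 ± 0.23 (edgeR adjusted p = 0.0017). With GW3965 it was 2.00 ± 0.50 (edgeR adjusted p = 0.0263), a call lost without any 1 of the DMSO+GW3965 libraries or without mouse 1 or 2 of SGC0946+GW3965 (0.0560 to 0.103 by edgeR), in the fit of the GW3965 libraries alone (0.0771) and by limma-voom (0.0557). Flt1 lost this call without mouse 2 in all groups too (0.131 by edgeR). Grb10 kept its call in 10 of 14 alternatives (edgeR adjusted p up to 0.0954). Vash1 encodes vasohibin 1, an enzyme that trims tubulin and is known as an inhibitor of vessel growth. It had 31, 27.3 and 31.1 CPM in DMSO+LPS and 65.8, 60.9 and 62.8 CPM in SGC0946+LPS, without overlap. It changed by 1.09 ± 0.15 on the log2 scale (edgeR adjusted p = 0.00012). With GW3965 the change was 1.21 ± 0.30 (edgeR adjusted p = 0.0268), lost without any 1 of the DMSO+GW3965 libraries or mouse 1 or 3 of SGC0946+GW3965 (0.0532 to 0.151 by edgeR), in the fit of the GW3965 libraries alone (0.0896) and by limma-voom (0.0672).

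Of 7 G protein-coupled receptors, Lpar4, Gabbr1 and Fzd6 rose after LPS and Adgrl4 with GW3965. Lpar4, a receptor for lysophosphatidic acid that was also named after its values were seen, had 0.135, 1.07 and 0.274 CPM in DMSO+LPS and 3.23, 4.48 and 4.52 CPM in SGC0946+LPS. The groups were separate, and DMSO mouse 2 was the highest of its arm. The log2 fold change was 2.90 ± 0.52 (edgeR adjusted p = 0.0013). With GW3965 it was 1.25 ± 0.75 and did not pass (edgeR adjusted p = 0.454), and the difference between the conditions did not pass either (1.65 ± 1.03, edgeR adjusted p = 0.758). Fzd6, a Wnt receptor, had no count in the 3 DMSO+LPS libraries and 12 in the SGC0946+LPS libraries, which is at least 4.22-fold higher against a floor of 3 counts over the group. After LPS the calls of Fzd6 and Gabbr1 were kept in 8 and 6 of 15 alternatives (edgeR adjusted p up to 0.159 and 0.376), and that of Adgrl4 with GW3965 in 11 of 15 (up to 0.0964).

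Matrix and secreted proteins made up 15 members, of which 7 rose after LPS and 4 with GW3965, all of the latter after LPS as well. Fn1 encodes fibronectin, a main component of the extracellular matrix. Its values were 0.943, 0.857 and 1.23 CPM in DMSO+LPS and 4.66, 7.55 and 5.36 CPM in SGC0946+LPS. All SGC0946 libraries were thus well above all DMSO libraries. The change was 2.55 ± 0.44 on the log2 scale (edgeR adjusted p = 0.00082). With GW3965 the DMSO libraries had 0.271, 0.0859 and 0.848 CPM and the SGC0946 libraries 1.46, 2.16 and 2.91 CPM, a log2 fold change of 2.42 ± 0.52 (edgeR adjusted p = 0.0104). The latter call was lost without the DMSO+GW3965 library of mouse 1 or 2 (0.0678 and 0.0634 by edgeR) and in the fit of the GW3965 libraries alone (0.0501). Leaving out mouse 2 in all groups ended it as well (0.129 by edgeR).

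Fstl1 encodes a secreted glycoprotein related to follistatin. It had 1.35, 1.29 and 1.37 CPM in DMSO+LPS and 4.06, 6.84 and 6.37 CPM in SGC0946+LPS. With GW3965 it had 0.271, 1.63 and 1.02 CPM in DMSO and 2.66, 5.53 and 4.52 CPM in SGC0946. The arms were separate in both conditions, with mouse 1 lowest in 3 of these 4 groups. On the log2 scale the inhibitor effect was 2.10 ± 0.40 after LPS (edgeR adjusted p = 0.0026) and 2.17 ± 0.39 with GW3965 (edgeR adjusted p = 0.0022).

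Htra1, a secreted serine protease that cleaves matrix proteins, was at 0.456 to 1.01 CPM in unstimulated DMSO cells. It reached 20.1, 19.6 and 22.9 CPM in DMSO+LPS and 34.6, 46.5 and 34.3 CPM in SGC0946+LPS. With GW3965 it was at 0.609, 0.516 and 0.594 CPM in DMSO and 2.41, 2.76 and 2.41 CPM in SGC0946. The arms did not overlap in either condition. The log2 fold change was 0.89 ± 0.13 after LPS (edgeR adjusted p = 0.00014) and 2.11 ± 0.27 with GW3965 (edgeR adjusted p = 7.7e-05). The difference of -1.22 ± 0.31 between the conditions did not pass (edgeR adjusted p = 0.214).

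**Figure D3:**
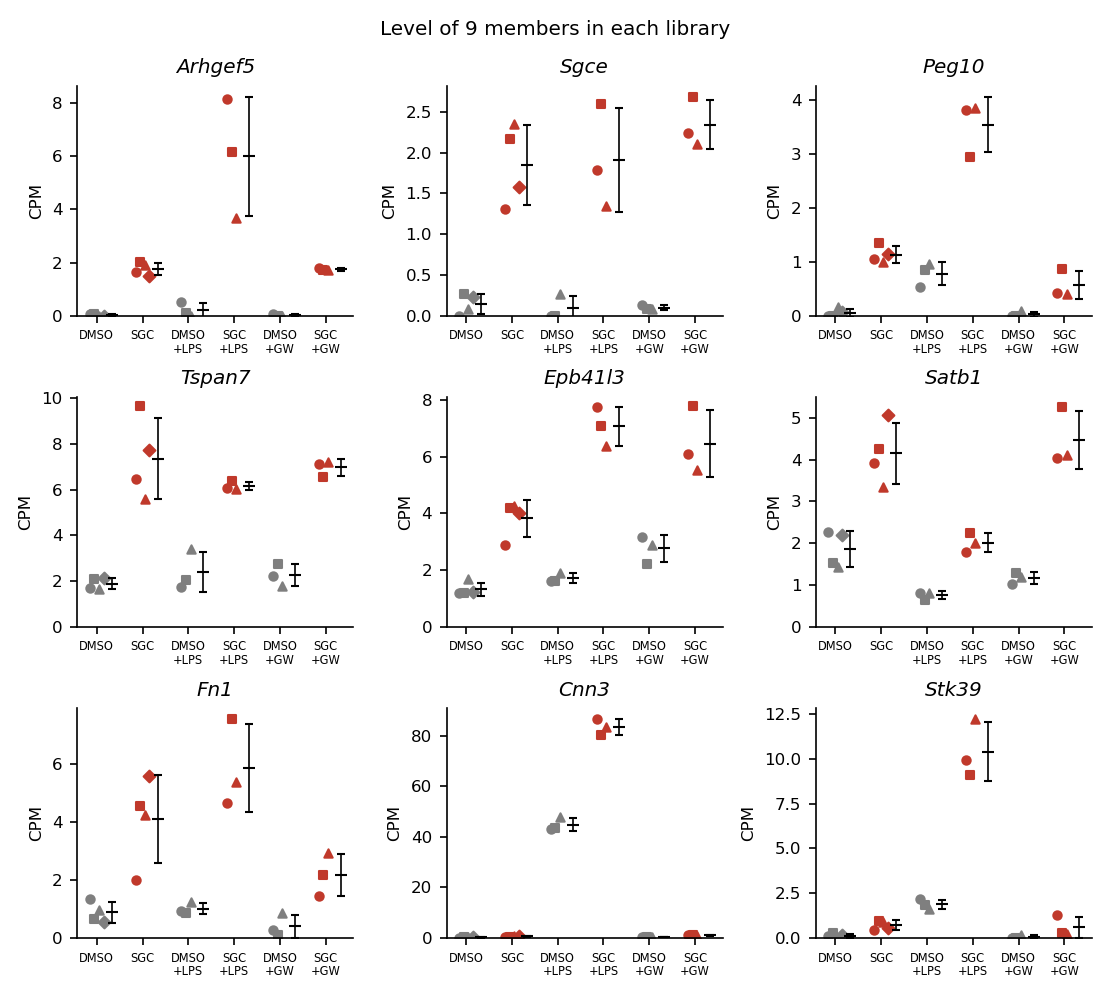
CPM of 9 members in each library by group, with grey DMSO points, red SGC0946 points, the mouse given by the symbol (circle 1, square 2, triangle 3, diamond 4) and black marks for mean ± SD. Each vertical axis starts at 0 with its own range, and in all 9 genes each SGC0946 group lies above its DMSO group without overlap. In unstimulated cells this follows from the choice of the members. Of all 188 members 52.1% were separate after LPS and 63.3% with GW3965, so the 9 genes do not stand for the rest. Cnn3, Stk39 and Peg10 are among the genes whose mean level in SGC0946 cells was higher after LPS than in the other conditions.

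Tetraspanins are 4-pass membrane proteins that organise other membrane proteins, and 3 of them are members, Tspan7, Tspan8 and Tspan9. Tspan7 was at 5.60 to 9.65 CPM in unstimulated SGC0946 cells and 1.68 to 2.13 CPM in DMSO. After LPS it was at 1.75, 2.04 and 3.42 CPM in DMSO and 6.09, 6.37 and 6.03 CPM in SGC0946. With GW3965 it was at 2.23, 2.75 and 1.78 CPM in DMSO and 7.13, 6.56 and 7.23 CPM in SGC0946. Its levels in SGC0946 cells were much alike in the 3 conditions. SGC0946 against DMSO gave 1.37 ± 0.25 (log2) after LPS (edgeR adjusted p = 0.00125) and 1.62 ± 0.21 with GW3965 (edgeR adjusted p = 8.8e-05). Tspan8 passed in both conditions too, and after LPS it had no count in DMSO and 13 in SGC0946, at least 4.57-fold higher. Its call was kept in 13 of 15 alternatives after LPS (edgeR adjusted p up to 0.121, without mouse 2) and in 6 of 15 with GW3965 (up to 0.139, without mouse 2 of DMSO+GW3965).

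Of 11 adhesion and junction proteins, 7 rose after LPS, 6 with GW3965 and 4 in both. Bcam, a laminin-binding adhesion molecule named after its values were seen, was at 2.16, 1.61 and 2.87 CPM in DMSO+LPS and 5.14, 6.14 and 9.05 CPM in SGC0946+LPS, without overlap. Its log2 fold change was 1.61 ± 0.27 (edgeR adjusted p = 0.00060). Tenm4, a teneurin that links neighbouring cells, had 0.677, 0.516 and 0.594 CPM in DMSO+GW3965 and 2.83, 2.25 and 3.21 CPM in SGC0946+GW3965. The spread within each arm was small beside the distance between them. The change was 2.17 ± 0.32 on the log2 scale with GW3965 (edgeR adjusted p = 0.00032) and 1.88 ± 0.44 after LPS (edgeR adjusted p = 0.0110), where the call was lost without the DMSO+LPS library of mouse 1 (0.0556 by edgeR).

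DNA-binding and chromatin proteins were the largest group, with 17 members, of which 4 rose after LPS and 6 with GW3965. The 4 were Satb1, Morc4, Thrb and Zfp827, and each passed in both conditions. Among the alternatives, Morc4 kept its call in 15 of 15 after LPS and 9 of 15 with GW3965 (edgeR adjusted p up to 0.319), and Thrb in 10 of 15 in each (up to 0.0955 and 0.146). Satb1, an organiser of chromatin loops best known from thymocytes, was at 1.02, 1.29 and 1.19 CPM in DMSO+GW3965 and 4.04, 5.27 and 4.12 CPM in SGC0946+GW3965. After LPS it was at 0.808, 0.643 and 0.821 CPM in DMSO and 1.79, 2.24 and 2.01 CPM in SGC0946. Neither pair of groups overlapped. The log2 fold change was 1.95 ± 0.23 with GW3965 (edgeR adjusted p = 2.5e-05) and 1.41 ± 0.33 after LPS (edgeR adjusted p = 0.0111), a call lost without the DMSO+LPS library of mouse 2 (0.0686 by edgeR). Satb1 lost the call after LPS without mouse 2 in all groups as well (0.191 by edgeR). Zfp827, a zinc finger protein named after its values were seen, changed by 1.89 ± 0.35 after LPS (edgeR adjusted p = 0.0016) and 1.56 ± 0.30 with GW3965 (edgeR adjusted p = 0.0047).

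Tet1, an enzyme that oxidises methylcytosine and so takes part in DNA demethylation, is the member on the list of 13 genes of DNA methylation. It was at 0.201 to 0.760 CPM in unstimulated DMSO and 1.13 to 2.39 CPM in SGC0946 cells. After LPS it had 0.269, 0.107 and 0 CPM in DMSO and 0.717, 0.590 and 0.838 CPM in SGC0946, and with GW3965 0.338, 0.430 and 0.254 against 1.37, 1.12 and 0.703 CPM. The arms were separate in each condition, but the tests missed the threshold (edgeR adjusted p = 0.0648 after LPS and 0.0643 with GW3965). Tet1 passed after LPS by limma-voom (adjusted p = 0.0428) and with GW3965 without mouse 3 of SGC0946+GW3965 (0.0471 by edgeR). Tex15, known from the germ line for its part in meiosis and transposon silencing, had 1.21, 1.07 and 0.958 CPM in DMSO+LPS and 5.02, 2.71 and 4.52 CPM in SGC0946+LPS. The lowest SGC0946 library, that of mouse 2, was above all DMSO libraries. The log2 fold change of Tex15 was 1.90 ± 0.32 after LPS (edgeR adjusted p = 0.00080) and 2.20 ± 0.31 with GW3965 (edgeR adjusted p = 0.00021).

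Genes of neuronal trafficking and guidance gave 10 members, of which 3 rose after LPS and 3 with GW3965. Plxna4 encodes plexin A4, a receptor for semaphorins. It was at 1.21, 0.643 and 0.684 CPM in DMSO+LPS and 3.94, 4.13 and 4.36 CPM in SGC0946+LPS, with no overlap. Its log2 fold change was 2.29 ± 0.30 after LPS (edgeR adjusted p = 6.2e-05) and 1.19 ± 0.35 with GW3965 (edgeR adjusted p = 0.0668). Bicd1, an adaptor of the dynein motor, was at 3.81 to 5.79 CPM in unstimulated SGC0946 cells and 0.836 to 1.60 CPM in DMSO. After LPS it was low in both arms, at 0.135, 0 and 0.411 CPM in DMSO and 0.597, 0.472 and 1.01 CPM in SGC0946, and did not pass (log2 fold change 1.92 ± 0.89, edgeR adjusted p = 0.223). With GW3965 it passed (1.38 ± 0.33, edgeR adjusted p = 0.0227), but not without the DMSO+GW3965 library of mouse 1 or the SGC0946+GW3965 library of mouse 2 (0.134 and 0.169 by edgeR). Nor did it pass without mouse 2 in all groups (0.136 by edgeR) or with the GW3965 libraries fitted alone (0.0817).

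Of 8 transporters and ion channels, Slc16a9 and Fxyd2 rose in both conditions and Kcnj10 with GW3965. Slc16a9, a monocarboxylate transporter, was at 1.56, 2.41 and 1.02 CPM in DMSO+GW3965 and 4.55, 5.27 and 5.02 CPM in SGC0946+GW3965, well apart. This gave a log2 fold change of 1.57 ± 0.26 with GW3965 (edgeR adjusted p = 0.00097). After LPS it was 1.68 ± 0.46 (edgeR adjusted p = 0.0321), and leaving out any of the 6 LPS libraries ended that call (0.0586 to 0.120 by edgeR). So did leaving out mouse 2 in all groups (0.0813 by edgeR). The call of Kcnj10 was kept in 10 of 15 alternatives (edgeR adjusted p up to 0.334, without mouse 2). That of Fxyd2 with GW3965 was lost in the fit of the GW3965 libraries alone (0.0654 by edgeR) and without mouse 2 (0.0989). Fxyd2 after LPS (1.5 ± 0.38, edgeR adjusted p = 0.0199) lost its call without mouse 1 or 2 of DMSO+LPS or mouse 2 of SGC0946+LPS (0.0667 to 0.0878 by edgeR). That call was also lost without mouse 2 in all groups (0.156 by edgeR). In Slc16a9 23.5% of exon bases overlap another gene. Abca6, a transporter of the ABC family, had 0.539, 1.5 and 1.92 CPM in DMSO+LPS and 2.51, 2.36 and 2.01 CPM in SGC0946+LPS and did not pass in either condition (edgeR adjusted p = 0.402 and 0.588).

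Enzymes of lipid, redox and small-molecule metabolism gave 14 members, of which 3 rose after LPS and 5 with GW3965. B3gnt5, which makes a precursor of lacto-series glycolipids, was high after LPS in both arms, at 19.7, 23.4 and 18.6 CPM in DMSO and 26.6, 24.2 and 31.2 CPM in SGC0946. The arms did not overlap but lay close to each other. A further 70 members were placed in no group, and 22 of these rose after LPS, 19 with GW3965 and 11 in both. Stk39, a kinase that regulates ion cotransporters, had 2.16, 1.82 and 1.64 CPM in DMSO and 9.92, 9.09 and 12.2 CPM in SGC0946. Every SGC0946 library was far above every DMSO library. SGC0946 against DMSO gave 2.46 ± 0.35 on the log2 scale (edgeR adjusted p = 0.00013). With GW3965 the DMSO libraries held 2 counts and the SGC0946 libraries 20, a ratio of 11.5 (2.80 to 102) that did not pass (edgeR adjusted p = 0.0574). It passed by DESeq2 (adjusted p = 0.0375), without a filter (0.0301 by edgeR) and without mouse 3 of DMSO+GW3965 or mouse 2 or 3 of SGC0946+GW3965 (0.0287 to 0.0477 by edgeR).

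Itm2a, a membrane protein of the BRICHOS family, had 0.269, 0.536 and 0.411 CPM in DMSO+LPS and 2.63, 2.48 and 2.35 CPM in SGC0946+LPS. With GW3965 it had 0.271, 0.344 and 0.254 CPM in DMSO and 1.20, 0.864 and 1.71 CPM in SGC0946. The arms were separate in both. The log2 fold change was 2.56 ± 0.38 after LPS (edgeR adjusted p = 0.00018) and 2.07 ± 0.39 with GW3965 (edgeR adjusted p = 0.0033), the latter missing the threshold when the GW3965 libraries were fitted alone (0.0566 by edgeR). Vldlr, a receptor of the LDL receptor family, rose after LPS (2.22 ± 0.58, edgeR adjusted p = 0.0247), a call lost without mouse 1 or 3 of DMSO+LPS or mouse 2 of SGC0946+LPS (0.10, 0.0718 and 0.10 by edgeR). Vldlr also lost that call without mouse 2 in all groups (0.0667 by edgeR). With GW3965 it did not pass (1.82 ± 0.53, edgeR adjusted p = 0.0646). It passed there with the mouse as a block (0.0133 by edgeR), without a filter (0.0255 by edgeR), without mouse 3 of SGC0946+GW3965 (0.0238 by edgeR) and by DESeq2 (adjusted p = 0.0202).

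**Figure D4:**
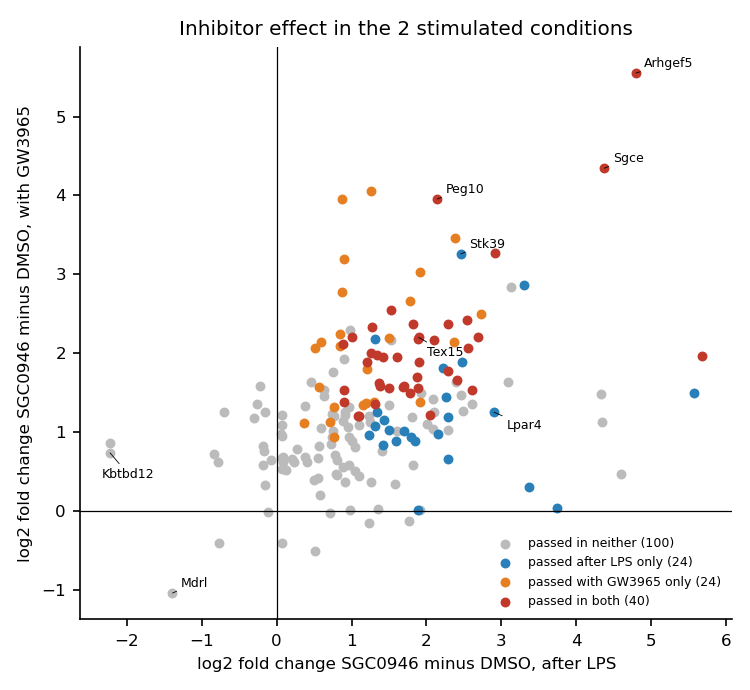
Log2 fold change of SGC0946 against DMSO after LPS (horizontal) and with GW3965 (vertical) for the 188 members, coloured by the conditions in which they passed. Most points lie above 0 on both axes (166 of 188), Arhgef5 and Sgce lie above 4 on both axes, and the points below 0 on either axis are all grey.

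Immune surface proteins gave 8 members, with 1 higher after LPS (Klra17) and 3 with GW3965 (H2-Ob, Klra9 and Klra17). With GW3965 these calls were kept in 8 of 15, 12 of 14 and 12 of 15 alternatives, and that of Klra17 after LPS in 12 of 15. Klra9 and Klra17 are close paralogs whose counts are uncertain. Cd5, a surface protein of T cells and some B cells, was at 0.808, 0.429 and 0.411 CPM in DMSO+LPS and 0.597, 0.354 and 0.335 CPM in SGC0946+LPS. These groups overlapped, and the change of -0.30 ± 0.58 did not pass (edgeR adjusted p = 0.837). Dpp4, a surface peptidase found on T cells and dendritic cells, did not pass after LPS (0.12 ± 0.49, edgeR adjusted p = 0.930) or with GW3965 (0.52 ± 0.46, edgeR adjusted p = 0.653).

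Markers of other cells were looked at beside these results. The neutrophil and granulocyte precursor list (14 tested genes) was lower with SGC0946, with 6 genes lower in unstimulated cells, 5 after LPS and 7 with GW3965 and 0 higher by edgeR's test. Its summed level was 129 to 146 CPM in unstimulated DMSO against 81.7 to 111 in SGC0946, 239 to 271 against 163 to 211 after LPS, and 99.2 to 117 against 55.1 to 75.9 with GW3965. The T and NK cell list, which holds the member Cd5, had 2 of 8 tested genes higher after LPS and 2 with GW3965, against 3.01% and 1.90% of all genes, and none lower. In unstimulated cells, whose values chose Cd5, 1 of its 7 other tested genes was higher, against 4.05% of all genes. With Cd5 included, it summed to 10.3 to 15.8 against 16.9 to 21.3 CPM in unstimulated cells, 26.6 to 32.4 against 46.5 to 55.5 CPM after LPS, and 11.2 to 12.8 against 19 to 21.2 CPM with GW3965. Most of the T and NK sum after LPS was Lck (group means 19.8 against 36.8 CPM) and Cd4 (7.12 against 13.1 CPM). Those were the 2 genes that passed there. Lck averaged 0.624 against 0.256 CPM in unstimulated cells and 0.352 against 0.354 CPM with GW3965. Cd4 held most of the sum in these, with 9.19 against 15.3 and 9.78 against 16.6 CPM. The sums thus do not describe the rest of the list. Epithelial markers summed to at most 0.524 CPM and erythroid markers to at most 1.05 CPM in any library. In the neuronal, stromal, germ cell, megakaryocyte and adipocyte lists no gene passed in any condition. Other lists had genes higher and none lower. Acp5 and Atp6v0d2, of 7 tested osteoclast genes, were higher in unstimulated cells and after LPS. Kdr, of 7 endothelial genes, and Cd22, of 4 B cell genes, were higher in each condition. Of 10 dendritic non-members 1 was higher in unstimulated cells and 1 (Irf4) after LPS. Single eosinophil, mast cell and muscle genes were higher in unstimulated cells, with GW3965 or in both. The part of these cells in the members' values was not tested, and in bulk RNA a change in the number of cells of a type cannot be told apart from a change in RNA per cell.

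The clearest positional pattern was a pair of neighbours on chromosome 6. Sgce, which encodes epsilon-sarcoglycan and is expressed from the paternal allele, and Peg10 lie 101 bp apart (chr6:4674350-4747204 and chr6:4747306-4760517). Sgce had 0, 0 and 0.274 CPM in DMSO+LPS, which is 2 counts, and 1.79, 2.60 and 1.34 CPM in SGC0946+LPS. With GW3965 it had 0.135, 0.0859 and 0.0848 CPM in DMSO and 2.23, 2.68 and 2.11 CPM in SGC0946. The gene was thus almost silent in every DMSO library and above 1 CPM in every SGC0946 library. The ratio after LPS was 23.7, with a counting interval of 6.20 to 202 (edgeR adjusted p = 0.00041), and both DMSO counts came from mouse 3. The log2 fold change with GW3965 was 4.35 ± 0.54 (edgeR adjusted p = 5.4e-05).

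Peg10 had 0.539, 0.857 and 0.958 CPM in DMSO+LPS and 3.82, 2.95 and 3.85 CPM in SGC0946+LPS, a log2 fold change of 2.14 ± 0.38 (edgeR adjusted p = 0.0011). It was above its unstimulated level after LPS in both arms. With GW3965 there was 1 count in DMSO and there were 19 in SGC0946, a ratio of 21.9 (3.48 to 909, edgeR adjusted p = 0.0072). That call was lost without the DMSO+GW3965 library of mouse 1 (0.0506 by edgeR) or the SGC0946+GW3965 library of mouse 2 (0.0519), and when the GW3965 libraries were fitted alone (0.0706). Leaving out mouse 2 in all groups also ended it (0.190 by edgeR).

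Within 500 kb of Peg10 the table held 7 symbols, of which 5 were tested. Ppp1r9a, an actin-binding neurabin that is not a member because its DMSO mean was 4.32 CPM, was higher with SGC0946 in unstimulated cells (16.6 to 31.8 CPM; log2 fold change 2.26 ± 0.27, edgeR adjusted p = 1.0e-05), after LPS (2.21 ± 0.36, edgeR adjusted p = 0.00054) and with GW3965 (2.15 ± 0.31, edgeR adjusted p = 0.00024). Casd1, on the other side, had a mean of 40.4 CPM in unstimulated DMSO libraries and 42.4 CPM with the inhibitor and did not pass in any condition, nor did Pon3. Among 18 tested genes of a list of imprinted genes drawn up after these values were seen, 4 were higher and 1 lower after LPS, and 5 higher and 0 lower with GW3965 by edgeR's test. The members on that list are Sgce, Peg10, Grb10 and Kcnq1, and of its 14 tested non-members 2 were higher in each condition, against 3.01% of all genes after LPS and 1.90% with GW3965.

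**Figure D5:**
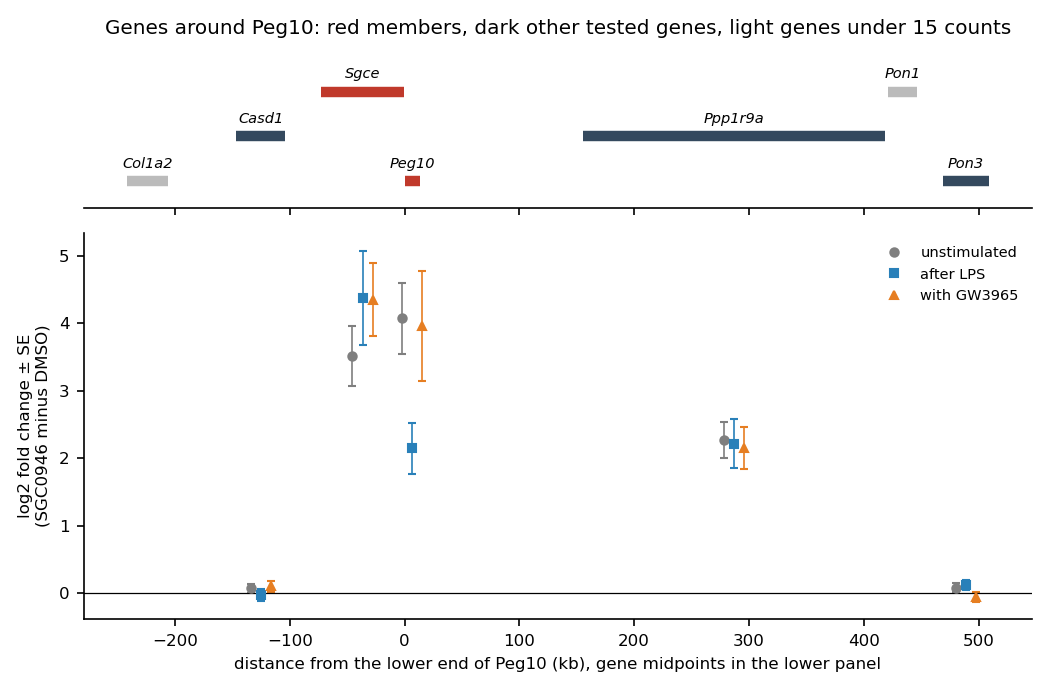
Genes within 500 kb of Peg10, drawn to scale as distance from its lower end (top), and the log2 fold change ± SE of the 5 tested genes in unstimulated, LPS and GW3965 cells (bottom). Sgce, Peg10 and Ppp1r9a lie between 2.14 and 4.38 in all 3 conditions, and Casd1 and Pon3 lie near 0; the unstimulated values of Sgce and Peg10 were used to choose them.

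A further 4 pairs of members lay within 200 kb of each other. The zinc finger genes Zkscan7 and Zfp105 were 24.4 kb apart on chromosome 9, and Mreg and Xrcc5 95.1 kb apart on chromosome 1. Xrcc5, which encodes the Ku80 subunit of DNA double-strand break repair, is counted here on 1 of its transcripts. It passed after LPS (2.29 ± 0.58, edgeR adjusted p = 0.0193), not so without mouse 1 or 2 of DMSO+LPS or mouse 1 or 3 of SGC0946+LPS (0.0592 to 0.0834 by edgeR), and with GW3965 (2.37 ± 0.50, edgeR adjusted p = 0.0085), not so without mouse 1 of DMSO+GW3965 (0.0540 by edgeR). By limma-voom it did not pass after LPS (adjusted p = 0.0681). Without mouse 2 in all groups it did not pass with GW3965 (0.0600 by edgeR). Mreg did not pass in either condition. Zkscan7 with GW3965 missed the threshold (edgeR adjusted p = 0.0649) and passed with the mouse as a block (0.0297 by edgeR) and without mouse 1 of SGC0946+GW3965 (0.0251 by edgeR). Another gene called higher after LPS lay within 100 kb of 26 members (13.8%, against 8.40% of tested genes), and another called higher with GW3965 near 18 (9.57%, against 5.09%).

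Cnn3, Vash1, Htra1 and B3gnt5 had means above 10 CPM after LPS in both arms. Members with a detected count numbered 152 to 158 in DMSO+LPS and 170 to 177 in SGC0946+LPS libraries, fewer than the 177 to 179 and 187 to 188 with GW3965. The TMM factors were 0.697 to 0.730 in LPS libraries and 1.13 to 1.18 in the others. At equal totals 1 CPM thus stands for fewer counts after LPS. The median member CPM per library averaged 0.414 after LPS and 0.420 with GW3965 in DMSO, and 1.10 and 1.09 in SGC0946. Levels compared between conditions rest on this scaling. Summed over the 188 genes, the level was 97.6 to 110 CPM in DMSO and 281 to 328 in SGC0946 unstimulated, 248 to 273 and 553 to 577 after LPS, and 106 to 125 and 251 to 297 with GW3965.

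A few members went the other way on the fitted value without passing. After LPS the lowest were Kbtbd12 and Zdhhc23, each with 1 count in the DMSO libraries and 0 in the SGC0946 libraries, so that no change can be read. Mdrl, a long non-coding RNA whose exons lie entirely within another gene, had 6 and 2 counts after LPS and 10 and 4 with GW3965. It changed by -1.39 ± 1.04 after LPS (edgeR adjusted p = 0.493) and by -1.04 ± 0.80 with GW3965 (edgeR adjusted p = 0.582), and its counts cannot be assigned to it with certainty.

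Genes of systems known to keep genes silent were looked at by list. Over all genes tested, 4.05% were higher and 3.81% lower with SGC0946 in unstimulated cells. The shares were 3.01% and 3.33% after LPS, and 1.90% and 1.34% with GW3965. A part of these systems in the members' values was not tested. In the list of 28 Polycomb subunits no gene was higher and 1 was lower with SGC0946 in each condition, among them Phc2 after LPS (-0.35 ± 0.07, edgeR adjusted p = 0.0044). None of 16 genes of H3K9 methylation and heterochromatin passed in any condition. Of 13 genes of DNA methylation, Tet1 among them, none passed after LPS or with GW3965 by edgeR's test on all libraries, although Tet1 did so by limma-voom after LPS and with 1 library left out with GW3965. Among 17 histone deacetylase corepressor genes, 2 were higher in unstimulated cells, 2 higher and 1 lower after LPS and 1 higher with GW3965, among them Tbl1xr1 (0.41 ± 0.11 after LPS, edgeR adjusted p = 0.0235). The DOT1L complex and its elongation partners gave 17 tested genes, of which none passed in unstimulated cells or with GW3965. After LPS Npm1 (0.34 ± 0.09, edgeR adjusted p = 0.0318) and Supt16 (0.25 ± 0.07, edgeR adjusted p = 0.0318) were higher and Men1 (-0.30 ± 0.08, edgeR adjusted p = 0.0250) was lower. These are transcript levels, and histone marks and protein activity were not measured.

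Applied to the LPS libraries in place of the unstimulated ones, the same 4 conditions gave 272 genes, of which 68 were members (25.0% of those genes and 36.2% of the members). Applied to the GW3965 libraries they gave 209 genes, of which 93 were members (44.5% and 49.5%). All 3 sets shared 48 genes. Turned round, the conditions gave 43 genes after LPS and 33 with GW3965.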

How the data were processed

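RNA (700 ng per sample) was made into mRNA libraries and sequenced as 50 bp single reads. The deposited read count table holds whole-number counts for 35745 transcripts, and a deposited RPKM table holds the same transcripts per length and depth. Reads were aligned with STAR 2.5.2b to mm10 and handled with SAMtools 1.3.1, per the submitters' processing notes, and for the counting program, annotation and strand setting the entry is: not given in the sources used here. Each symbol was represented by its transcript of highest total count, which left 57.3% of counts, and 305 transcripts without a symbol (1.17% of counts) were left out.

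All 20 libraries were fitted with edgeR 4.0.16 (R 4.3.3): TMM scaling, 6 group means, genes with at least 15 counts in all (13901 genes, all 188 members), quasi-likelihood tests and Benjamini-Hochberg adjustment over all genes tested. Standard errors were derived from the test statistic and are approximate. Zero-count floors are 3 counts over the group, and 95% intervals are exact and cover counting error only. DESeq2 1.42.0, limma-voom (limma 3.58.1), other scalings, filters and transcript choices, a block for mouse and the leaving out of each library were alternatives, and the tests were run on simulated data first. Same-numbered libraries come from the same mouse, per the deposited sample sheet; their deviations from the group means correlated at 0.0608 to 0.428, over 0.1 in 7 of 10 pairs.

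The members, the gene lists and the role groups were chosen with earlier results of these data known, the role groups after the values were seen. Named members are those with the highest CPM in unstimulated SGC0946 cells (12), those with the smallest p after LPS, with GW3965 (8 each) and for the difference between these (up to 6), those lower on the fitted value (up to 4 each), those on a list, those near a threshold and those within 200 kb of each other. Some others are marked as chosen after their values were seen. Members named only for a role group, a level or a count, such as Fzd6, Tspan8 and B3gnt5, carry no such mark. They too were outside these rules and were named with their values known.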

Additional observations from a re-analysis of the deposited data

Results flagged for a closer look

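In groups of 4 libraries, a single library that stands far from the other 3 was looked for by Dixon's ratio among 96 sets of values of named members and per-library summaries, all from unstimulated cells, and 11 were found. The cut-off is passed by about 1 in 20 sets of independent, normally distributed values. These sets hold low counts of genes that the same libraries chose, so no excess can be read from that figure. In DMSO the library that stood apart was that of mouse 1 for Abca6 (1.18 CPM), of mouse 3 for Epb41l3 (1.68 CPM), and of mouse 4 for Kbtbd12 (0.228 CPM), Mdrl (0.0760 CPM) and Zdhhc23 (0.380 CPM). In SGC0946 it was that of mouse 1 for Mcc (0.698 CPM), of mouse 2 for Gm10768 (0.823 CPM) and Zfp105 (1.12 CPM), and of mouse 4 for Itm2a (2.72 CPM) and Vldlr (7.01 CPM). The median log2 ratio of the members to the DMSO mean also stood apart in the SGC0946 library of mouse 1, at 0.945.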

How the results depend on the processing

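The rule gave 149 to 243 genes under other scalings, transcript choices, a DMSO limit of 1 CPM or without any 1 library (203 to 243). With counts summed over transcripts, 132 of the 188 members remained among 149 genes. The rule gave 113 with a limit of 1 CPM in SGC0946, 95 with a ratio of 3, and 307 (148 of them members) without mice 2 and 4 in both arms, an alternative chosen after seeing the data; the added genes follow from fewer libraries having to be separate. After LPS, 56 to 67 members passed under other tools, scalings and filters, and 32 to 52 with a library or mouse 2 left out. With GW3965, 57 to 69 passed under other tools, scalings and filters, and 25 to 53 with a library or mouse 2 left out (mouse 2 was chosen after seeing the data). When only the groups compared were fitted, 22 passed with GW3965. That fit leaves fewer libraries to estimate the spread, and none that chose the members. With a replicate block for the pairing by mouse, 67 passed after LPS and 69 with GW3965; among the named members it changed the calls of Vldlr and Zkscan7 with GW3965 and no other. The difference between LPS and GW3965 passed in 0 members under every alternative run. Of 48 named results that passed, 19 lost the call under at least 1 alternative and 29 under none. Changes that reversed when a library or mouse was left out were never called. After LPS these ranged from -0.63 to 0.055 (log2) for Cd5, from -0.32 to 0.53 for Dpp4, from -4.53 to 0.027 for Mdrl, from -1.35 to 0.036 for Mirt1, from -0.52 to 0.20 for Mreg and from -2.78 to 2.30 for Rbm20. With GW3965 they ranged from -0.93 to 0.31 for 4930487H11Rik, from -0.12 to 0.70 for Abca6 and from -0.076 to 0.95 for Dpp4. The cause of these changes was not tested. The median member had 3 counts per DMSO+LPS library, which limits the precision there.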
